A study of Rattus norvegicus with 24 samples.

Results

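Ribosome footprints and RNA were compared transcript by transcript in the liver of young rats. The material was 6 of the 24 libraries of the series, 3 of ribosome profiling and 3 of RNA-seq, paired by the animal code in their titles (animals 061, 062 and 063, called animals 1, 2 and 3 here). The rats were 6 months old and the tissue was liver; strain, sex and any treatment are not stated in the labels. Brain of the same young animals and liver of 3 old rats (24 months) were used only for comparison. Brain of old rats (24 months) entered only in values of the transcript ENSRNOT00000059870. RNA-seq libraries came from total RNA with a stranded kit, and footprint libraries from RNA that ribosomes protect against RNase I. The tissue was homogenised on ice.

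A ribosome shields a short stretch of the mRNA that it is reading, and nuclease removes the rest. The number of protected fragments of a transcript depends on how much of the mRNA is present and on how many ribosomes sit on it. Dividing footprints by RNA gives an estimate of ribosome load per mRNA, usually called translational efficiency. Hepatocytes, the main cells of liver, make large amounts of secreted plasma proteins, so a few very abundant mRNAs take much of the ribosome capacity of this organ. In whole tissue, fewer cells of a type and less RNA per cell cannot be told apart.

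The RNA-seq libraries held between 17932008 and 21134842 counts each, the footprint libraries between 11839887 and 17584871. Replicates correlated across transcripts at 0.988 to 0.996 in RNA-seq and at 0.984 to 0.993 in footprints (Pearson's r of log2 CPM, that is, counts scaled to a common library total). Liver libraries of the 2 assays correlated at 0.935 or more, and no liver library correlated above 0.613 with a young brain library. No 2 replicate libraries agreed within sampling noise, the smallest chi-square value being 18.3 per degree of freedom. The files give Ensembl transcript identifiers alone, and 0 of the 22938 matched the gene table at hand, so markers of liver could not be checked and few transcripts are named. Of all transcripts, 7402 had 0 counts in all 6 libraries and 11927 passed the filter on low counts. The edgeR p-values rest on the spread over these 3 pairs of libraries, drawn in part toward that of other transcripts.

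Counts were concentrated in few transcripts, and more so among footprints than in RNA. In RNA-seq, 68, 97 and 89 transcripts held 50% of the counts in animals 1, 2 and 3. In footprints, 51, 55 and 55 did. For 90% of the counts, 2731, 3055 and 3063 transcripts were needed in RNA-seq and 2110, 2087 and 2177 in footprints. The footprint numbers lay below all RNA numbers in each case. The 2 assays largely ranked the same transcripts on top: of the 100 with the most counts in RNA-seq, 84, 77 and 78 were also among the top 100 of footprints in the same animal. The most abundant transcript, ENSRNOT00000003921, took 10.5%, 7.91% and 10.1% of RNA-seq counts and 14.5%, 10.2% and 11.9% of footprint counts in animals 1, 2 and 3. Its log2 ratio of footprints over RNA was 0.72, 0.86 and 0.65 (fitted log2 ratio 0.74, SE 0.181, edgeR adjusted p = 0.00178), and without animal 3 it was 0.79 with an adjusted p of 0.14.

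Ratios spread over about 10-fold in the middle 90% of transcripts. Each ratio was log2 of footprint CPM plus 0.5 over RNA CPM plus 0.5, after scaling that places the typical transcript near 0, so it is relative to other transcripts and not an absolute number of ribosomes. From the 5th to the 95th percentile the ratio covered 10.5-fold in animal 1, 10.9-fold in animal 2 and 10.3-fold in animal 3. The SD of the log2 ratio was 1.14 ± 0.017 (SD, n = 3 animals), against 2.22 for log2 RNA levels and 2.34 for log2 footprint levels. Most of the difference in footprints between transcripts therefore went with RNA: the 2 correlated at 0.878, 0.872 and 0.876 on the log2 scale, with slopes of footprints on RNA of 0.909, 0.926 and 0.931. With the 3 animals averaged, 69.8% of transcripts lay within 2-fold of the center, 12.5% were at least 2-fold above it and 17.7% at least 2-fold below it. Beyond 4-fold there were 2.7% above and 3.26% below.

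**Figure D1:**
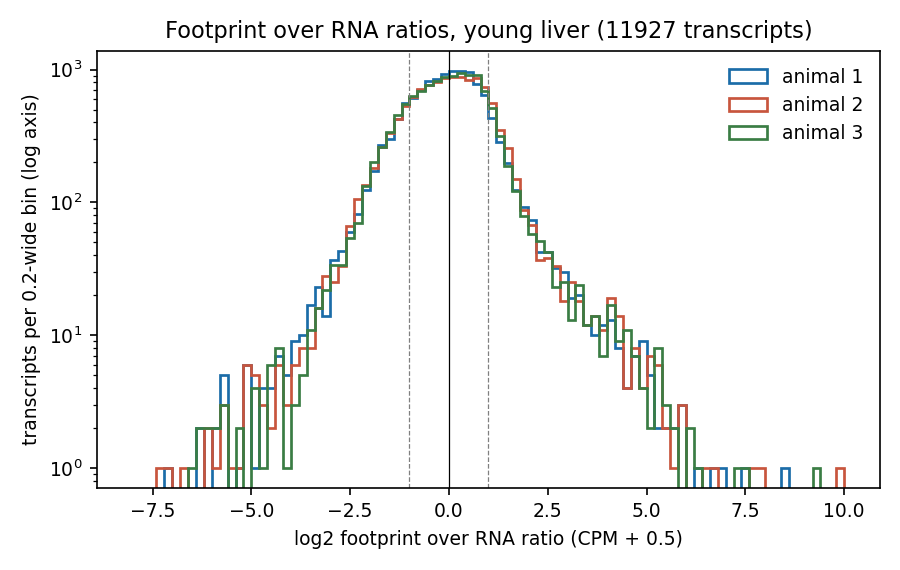
Distribution of the log2 footprint over RNA ratio of 11927 transcripts in each young liver animal (x axis, log2 of CPM + 0.5; y axis, transcripts per bin, log axis). Dashed lines mark 2-fold; the 3 curves nearly coincide, and the right tail reaches farther than the left one.

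By edgeR's paired test, 8357 of 11927 transcripts (70.1%) departed from the common ratio at an adjusted p under 0.05. Footprints were higher than RNA for 4145 of them (34.8% of those tested) and lower for 4212 (35.3%). Of the calls, 4091 (34.3% of those tested) had a fitted ratio at least 2-fold from the center, 1676 higher and 2415 lower. At 4-fold it was 429 higher and 663 lower. The test was against no departure, and the fold, here and below, was a cut on the fitted ratio. The 429 had a median RNA level of only 0.382 CPM. With at least 10 counts in each library, 10349 transcripts were tested. The 2-fold calls were then 1207 higher and 1923 lower, and the 4-fold calls 169 higher and 362 lower. Without the animal as a block, 7284 of the 11927 transcripts departed at an adjusted p under 0.05. As the center is set by the scaling, the near-equal numbers on both sides carry no information on absolute loading.

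The far ends of the distribution held transcripts that were nearly absent from 1 assay. The filter let a transcript pass on either assay, and 355 passed in all footprint libraries but not in all RNA-seq libraries. Such transcripts had to show high ratios (median log2 ratio 4.42). A further 895 passed in all RNA-seq libraries but not in all footprint libraries (median -1.5), and 10480 passed in full in both (median 0.05). With 0 RNA-seq counts in all 3 animals, 51 transcripts still had at least 10 footprint counts in each animal, and 19 of these showed the same pattern in young brain, where 56 of all 22938 transcripts did. Conversely, 48 had 0 footprint counts and at least 10 RNA-seq counts in each animal, 29 of them likewise in young brain, where 97 of all transcripts did. How reads that match several places were counted is not stated, and footprints are shorter than RNA-seq fragments usually are, so transcripts with near-identical copies are uncertain; the part of this in the extreme ratios was not tested.

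The transcripts named here had the 2 highest and the 2 lowest ratios among calls with a count in every library, so their size in young liver is a description. This choice also tilts any difference from another group away from 0, and the tests of such differences were added after the values were seen. ENSRNOT00000059870 had RNA-seq counts of 3, 1 and 1 and footprint counts of 803, 1559 and 1539 in animals 1, 2 and 3. Over the 3 animals this is a ratio of 1310 after scaling (95% exact binomial interval 560 to 4030, counting error only). The fitted log2 ratio was 10.2 (edgeR adjusted p = 3.98e-14). Footprints far above RNA were found in each of the 4 groups, with mean log2 ratios (CPM + 0.5) of 7.41 ± 0.439 in young liver, 7.81 ± 0.514 in young brain, 6.97 ± 0.291 in old liver and 7.96 ± 0.209 in old brain (SD, n = 3). The difference between young liver and young brain did not pass (edgeR adjusted p = 0.165), and its direction depended on the scale: the fitted log2 difference was 1.43 in favor of liver (SE 0.722 from counting error alone), while the means with the pseudocount were lower in liver.

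ENSRNOT00000024084 had 1 RNA-seq count in each young liver library and 279, 427 and 554 footprint counts, a ratio of 705 (95% exact binomial interval 241 to 3420). The fitted log2 ratio was 9.22 (edgeR adjusted p = 3.77e-13). In young brain its RNA was present, at 6.92 ± 1.23 CPM against 53.2 ± 5.89 CPM of footprints (SD, n = 3). The log2 ratio (CPM + 0.5) was 5.64, 5.94 and 6.03 in young liver and 2.91, 2.92 and 2.76 in young brain, with no overlap. The fitted difference was 6.34 on the log2 scale (SE 0.839 from counting error alone, edgeR adjusted p = 4.42e-10). In old liver its RNA-seq counts were 1, 1 and 3 and its footprint counts 200, 275 and 496, and the difference from young liver did not pass (log2 difference 0.65, SE 1.06 from counting error alone, edgeR adjusted p = 0.74).

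At the other end, ENSRNOT00000008094 had RNA-seq counts of 974, 704 and 862 and footprint counts of 1, 2 and 1. RNA exceeded footprints by a ratio of 379 (95% exact binomial interval 148 to 1390), with a fitted log2 ratio of -8.46 (edgeR adjusted p = 8.4e-13). Near absence of footprints was shared with young brain, where RNA-seq counts were 1865, 1919 and 1764 and footprint counts 1, 0 and 0, and with old liver, where footprint counts were 1, 0 and 1.

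ENSRNOT00000064242 behaved differently in the 2 organs. In young liver its RNA-seq counts were 2475, 2394 and 1896 and its footprint counts 3, 2 and 7, so RNA exceeded footprints by a ratio of 336 (95% exact binomial interval 192 to 651). The fitted log2 ratio was -8.34 (edgeR adjusted p = 1.56e-13). In young brain the same transcript reached 509 ± 25.9 CPM in RNA-seq and 198 ± 8.99 CPM in footprints (SD, n = 3). The log2 ratio (CPM + 0.5) was -7.15, -7.39 and -6.56 in young liver and -1.38, -1.24 and -1.44 in young brain. The fitted difference was -6.97 (SE 0.417 from counting error alone, edgeR adjusted p = 1.26e-14). In old liver footprint counts of 14, 27 and 20 stood beside RNA-seq counts of 1175, 1985 and 1619, and the log2 ratios of -4.42, -4.78 and -4.89 lay above all those of young liver (fitted difference, young minus old, -3.2, SE 0.456 from counting error alone, edgeR adjusted p = 0.000328).

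**Figure D2:**
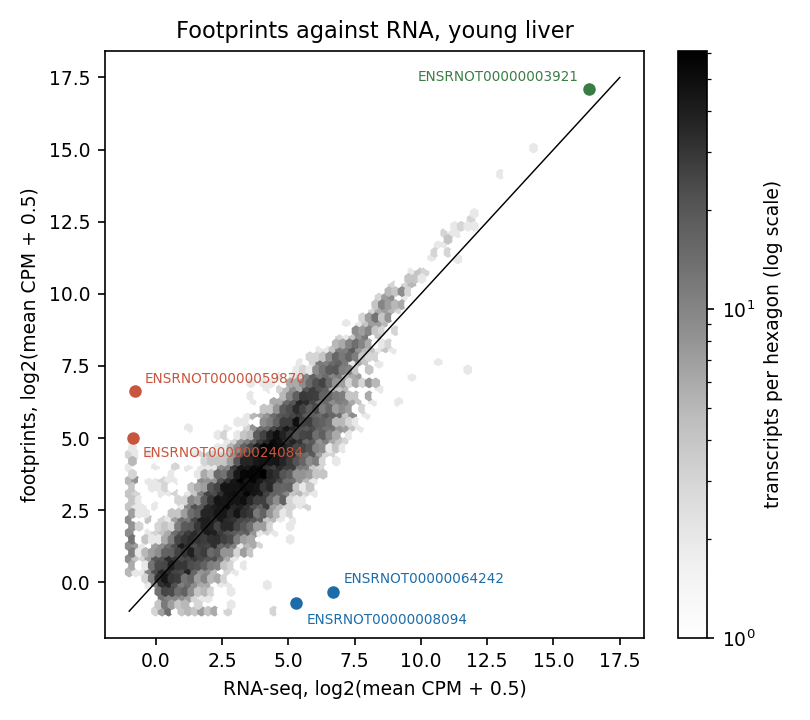
Mean footprint level against mean RNA-seq level of each transcript in young liver (both axes log2 of mean CPM + 0.5, n = 3 animals; shading, transcripts per hexagon on a log scale; line, equal levels). The 2 highest (red) and 2 lowest (blue) named ratios lie near the axes, and ENSRNOT00000003921 (green) is the most abundant transcript at the upper right.

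Large ratios also occurred among transcripts with many counts in both assays. At least 100 counts in each of the 6 libraries were found for 5889 transcripts, whose log2 ratio had an SD of 0.907 and ran from -4.9 to 4.66. Of these, 64 lay at least 4-fold above and 98 at least 4-fold below the center, and 828 and 693 lay at least 2-fold above and below. The center is that of all transcripts tested, whereas the median log2 ratio of this set was 0.25, so the numbers on the 2 sides cannot be compared directly. For the typical transcript of this set the SD over the 3 animals was 0.169 on the log2 scale.

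The ratio fell steadily with the second column of the files, whose values resemble lengths but carry no definition and are called the length-like value here. It ran from 6 to 8007 with a median of 414 among the transcripts tested. Transcripts with values of 0 or less, 24 in all, held no counts in the series. Spearman's rank correlation between the log2 ratio and this value was -0.435, -0.445 and -0.442 in animals 1, 2 and 3. In 10 equal bins, the median log2 ratio went from 0.81 ± 0.049 in the bin of the smallest values (6 to 135) to -0.86 ± 0.046 in that of the largest (1105 to 8007; SD over 3 animals), falling at each step. In the first bin 42.3% of transcripts lay at least 2-fold above the center and 10.1% at least 2-fold below. In the last bin it was 0.587% above and 41.7% below. Spread also narrowed along the scale, with an SD of the log2 ratio of 1.39 in the first bin and 0.76 in the last.

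Levels rose with the length-like value in both assays, more steeply in RNA-seq. A slope of log2 CPM on the log2 length-like value would be 1 if counts rose in proportion to it and levels per length did not change. It was 0.574, 0.558 and 0.558 in RNA-seq and 0.203, 0.168 and 0.182 in footprints, without overlap (exact permutation p = 0.1, two-sided, the smallest possible with 3 against 3). That test treats the libraries as independent; paired by animal, the exact sign-flip p was 0.25, the smallest that 3 pairs allow. From the first to the last bin the median RNA level rose from 4.79 to 35.5 CPM, and the median footprint level from 9.5 to 18.4 CPM. The trend was present at every RNA level and strongest in the middle group of each animal: the rank correlation was -0.416 to -0.44 in the lowest of 3 equal groups by RNA, -0.469 to -0.517 in the middle group and -0.434 to -0.45 in the highest. A smooth curve in the length-like value took 16.5% of the variance of the mean log2 ratio, which lowered its SD from 1.11 to 1.02. With the trend removed within each library, edgeR called 7536 transcripts, 6401 of them among the 8357.

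Transcripts called at least 2-fold higher had a median length-like value of 193 (middle 50% of values from 116 to 315) and those called at least 2-fold lower one of 631 (377 to 1050), beside 414 over all tested. Among the transcripts with at least 100 counts in every library the same medians were 219 and 964, beside 459. The labels do not say over which part of a transcript reads were counted, so how far counting of transcript ends enters the trend was not tested.

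**Figure D3:**
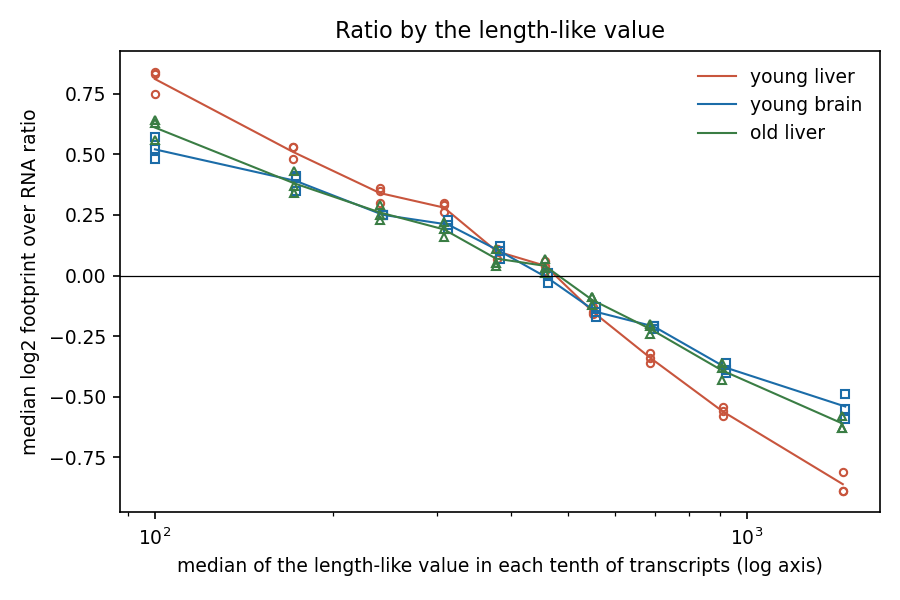
Median log2 footprint over RNA ratio in 10 equal bins of the length-like value (x axis, median of each bin, log axis; points, single animals; lines, mean of 3 animals). The ratio falls in young liver, young brain and old liver; the mean of the medians goes from 0.81 to -0.86 in young liver, from 0.52 to -0.54 in young brain and from 0.61 to -0.61 in old liver.

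By rank, the ratio had little relation to RNA abundance, and the sign depended on which transcripts were kept. To keep 1 library out of both axes, the ratio of each animal was set against the RNA level of each of the other 2 animals in turn, and the 2 rank correlations were averaged. Spearman's rank correlation with RNA CPM was -0.102, -0.052 and -0.048 for the ratios of animals 1, 2 and 3. With RNA of the same animal it was -0.116, -0.066 and -0.055. When transcripts were kept on RNA alone (at least 10 counts in each RNA-seq library, 11498 transcripts), the mean rank correlation was 0.015, and with at least 10 counts in all 6 libraries it was -0.11. A curved relation took more. A smooth curve in the mean RNA level of the same libraries took 12.3% of the variance of the mean log2 ratio, beside 16.5% for the length-like value and 25.6% for both. With the RNA level of 1 other animal the curve took 10.4%, 10.6% and 10.2% over all tested, but 0.451%, 0.331% and 0.451% with transcripts kept on RNA alone. Per unit of the length-like value, the rank correlation with RNA of the other animals was 0.143, 0.2 and 0.202 over all tested. A smooth curve in the mean RNA level of the same libraries, per unit of that value, took 2.51% of the variance. As the value carries no definition, it is not known whether this scale makes levels of different transcripts comparable. This scale contains the length-like value, with which the ratio itself falls. Within 3 equal groups by that value, the rank correlation with RNA CPM was -0.092 to -0.036 in the lowest, 0.118 to 0.206 in the middle and 0.008 to 0.088 in the highest. With footprint CPM of the other animals, over all tested, the rank correlation was 0.308, 0.361 and 0.365. Footprint levels carry the part of the ratio that animals share, so this relation is partly built in.

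Bins by the RNA level of 1 other animal showed where the ratios lay. Over all transcripts tested, the lowest of 10 bins had a median log2 ratio of 0.35, 0.32 and 0.27 in the 3 animals, but with transcripts kept on RNA alone it was -0.13, -0.17 and -0.17. With at least 10 counts in each of the 6 libraries, a choice that also selects on footprints, it was 0.43, 0.35 and 0.32. The top bin was above 0 under all 3 choices. It was at 0.09, 0.34 and 0.37 over all tested and at 0.14, 0.39 and 0.42 with transcripts kept on RNA alone. With at least 10 counts in each of the 6 libraries it was at 0.09, 0.35 and 0.36. Bins in between stayed from -0.17 to 0 over all tested. Among the 100 transcripts with the most RNA-seq counts in another animal, the median log2 ratio was 0.32, 0.79 and 0.75, and 69, 75 and 80 of them were above 0. Animal 1 had the lowest median of the 3 both in the top bin, under each choice, and among the top 100.

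**Figure D4:**
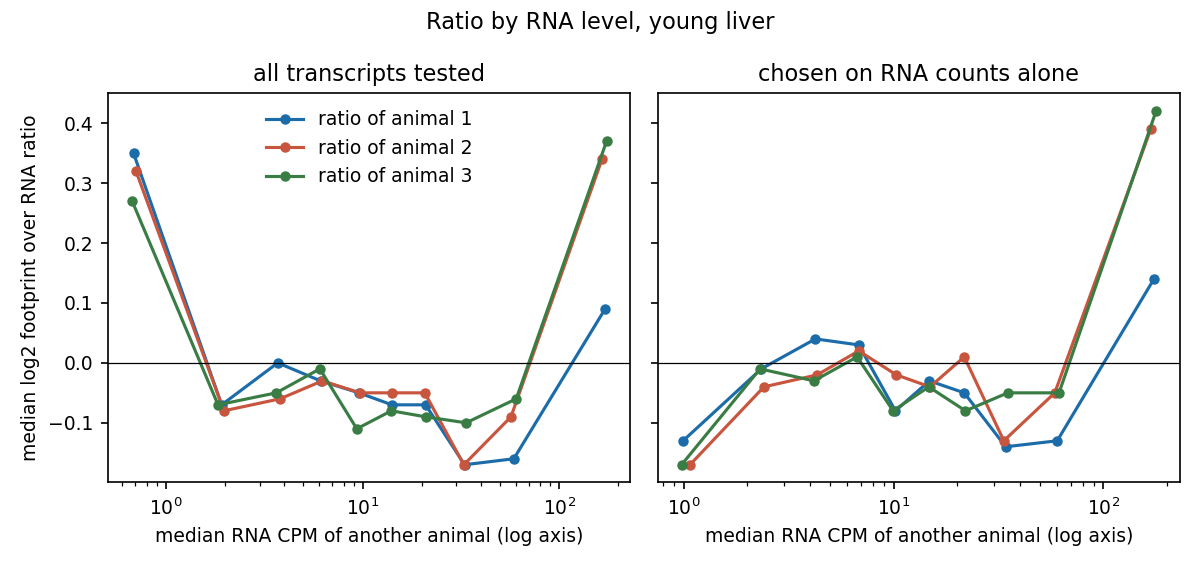
Median log2 footprint over RNA ratio of each young liver animal in 10 equal bins of the RNA CPM of another animal (x axis, median of the bin, log axis). With all transcripts tested (left) both ends are raised; with transcripts kept on RNA counts alone (right) the lowest bin lies at -0.13 to -0.17 and the top bin remains raised, at 0.14 to 0.42.

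Ratios were alike from animal to animal. Pearson's r of the log2 ratio over 11927 transcripts was 0.915 between animals 1 and 2, 0.898 between animals 1 and 3 and 0.945 between animals 2 and 3 (Spearman's rank correlation 0.891, 0.87 and 0.929). Both pairs with animal 1 were the lower ones. The ratios of 2 animals lay within 2-fold of each other for 95.3%, 94.1% and 97.7% of transcripts in that order of pairs. In all 3 animals 9654 transcripts (80.9%) were on the same side of 0. At least 2-fold above the center in every animal were 1001 transcripts, and at least 2-fold below it 1449. The covariance between animals amounted to 91.9% of the variance of the ratio, which gives an SD of 1.1 for the part that the animals share. The length-like value accounted for only part of this likeness, since the mean r was 0.905 with its trend removed from each animal and 0.919 before.

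Reproducibility rose with level. In the lowest of 10 bins by mean level (median 0.863 CPM of RNA and 0.714 CPM of footprints) the mean r between animals was 0.834, and in the highest (164 and 206 CPM) it was 0.967. The SD between animals fell from 0.481 to 0.202 on the log2 scale, while the SD between transcripts was 1.11 and 0.98. Counting noise alone accounted for 44.1% of the variance between animals in the lowest bin and for 3.92% in the highest. At high counts, the variance between animals was thus larger than Poisson counting noise. Differences between animals cannot be told apart here from differences between their libraries, and PCR copies were not accounted for. The share of transcripts on the same side of 0 in all 3 animals was 66.5% in the lowest and 91.9% in the highest bin.

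**Figure D5:**
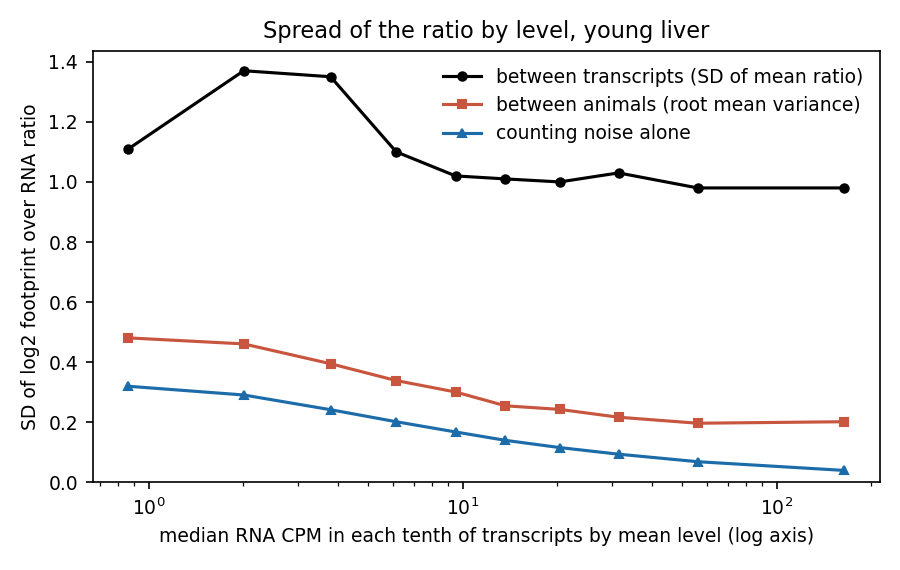
SD of the log2 footprint over RNA ratio in 10 equal bins of mean level in young liver (x axis, median RNA CPM of the bin, log axis): between transcripts (black), between the 3 animals (red) and from counting noise alone (blue). The SD between animals falls from 0.481 to 0.202 and counting noise from 0.32 to 0.04, while the spread between transcripts is 1.11 in the lowest bin and 0.98 in the highest.

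Where RNA differed between animals, footprints largely followed. Among 4995 transcripts at 16 CPM of RNA or more, 162 had RNA levels at least 2-fold apart between the highest and the lowest animal (median range 1.3 on the log2 scale). The animal with the most RNA also had the most footprints for 139 of these (85.8%), and both the highest and the lowest animal matched for 121 (74.7%). Their ratio ranged over a median of 0.44. Of the 4833 transcripts with smaller RNA differences, the highest animal matched for 49.6%, with a median RNA range of 0.25 and a median ratio range of 0.32. The slope of the footprint deviation on the RNA deviation was 0.878 in the first set and 0.581 in the second.

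The direction of the large ratios in young liver was mostly found again in old liver and in young brain. In old liver, 1647 of the 1676 transcripts called at least 2-fold higher passed the filter, and 1554 (94.4%) were called higher there with 0 called lower. Over the 11751 young liver transcripts that also passed in old liver, 32.7% were called higher and 32.7% lower there. The fit of old liver called 63.8% of its own 12209 transcripts. Of those called at least 2-fold lower in young liver, 2057 of 2352 (87.5%) were called lower in old liver and 0 higher. In young brain, whose libraries come from the same 3 animals, 1308 of 1522 (85.9%) were called higher and 22 lower. Of the lower list, 1940 of 2317 (83.7%) were called lower there and 81 higher. Over the 11224 young liver transcripts that also passed in young brain, 34% were called higher and 36.2% lower. The fit of young brain called 67.7% of its own 14032 transcripts. Part of the agreement in direction was set by the filter, which let a transcript pass on either assay in each group. Of the 355 young liver transcripts that passed in full in footprints alone, 313 were called higher and 0 lower. Of the 895 that passed in full in RNA-seq alone, 568 were called lower and 1 higher. The shares were not computed without such transcripts. At 2-fold the lists overlapped less. In old liver 977 were again called at least 2-fold higher, 59.3% of the young liver list and 89.9% of the 1087 of old liver, and 1447 at least 2-fold lower (61.5% and 87.6% of 1652). In young brain it was 867 higher (57% of the liver list and 59.5% of 1458) and 1349 lower (58.2% and 70.7% of 1908). The median fitted log2 ratio in young liver, which chose the lists, was 1.41 for the higher list and -1.58 for the lower list. For the other groups the median was taken of mean log2 ratios with the pseudocount. It was 1.05 and -1.05 in old liver and 1.1 and -1.13 in young brain. The pseudocount understates folds of low transcripts, so these sizes cannot be set against those of young liver. The mean log2 ratios of young liver correlated at r = 0.94 with those of old liver (11751 transcripts) and at r = 0.811 with those of young brain (11224 transcripts). These correlations are across transcripts, which are not independent replicates.

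Ratios were somewhat more spread in young than in old liver. The SD of the log2 ratio was 1.14 ± 0.017 in young liver, 0.988 ± 0.033 in old liver and 1.2 ± 0.035 in young brain (SD, n = 3 animals), and the 3 young liver values overlapped neither group. The rank correlation with the length-like value was -0.441 ± 0.005 in young liver, -0.4 ± 0.026 in old liver and -0.311 ± 0.024 in young brain, again without overlap. The rank correlation with RNA CPM of another animal was -0.067 ± 0.03, -0.065 ± 0.019 and -0.143 ± 0.022. For all but the rank correlation with RNA against old liver (exact permutation p = 0.9), the 2-sided exact permutation p was 0.1, the smallest that 3 against 3 allows. Adjusted over the 6 comparisons it was 0.12, so none passed. Young brain came from the same animals, and paired by animal its exact sign-flip p was 0.25 for each measure, the smallest that 3 pairs allow. RNA-seq depth differed as well, from 17932008 to 21134842 counts in young and from 25444467 to 28664906 in old liver, while the SD expected from counting was 0.19 and 0.189.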

How the data were processed

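RNA-seq and ribosome profiling of young rat liver were analysed, with 3 libraries of each. The authors deposited whole-number counts per transcript, 1 file per library, not normalised; a second, length-like column (no unit named in the deposited files) is the same in every file. Per the submitters' processing notes, the build was rn4 and the tools were DESeq, TopHat2 2.0.10 and Bowtie 1.0.0.0. Their roles, the annotation and the counting rule are not stated in the labels.

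Transcripts passing edgeR's filter (minimum count 10, minimum total 15) were fitted with edgeR 4.0.16 in R 4.3.3 (TMM scaling, robust quasi-likelihood F test, animal as a block, Benjamini-Hochberg adjustment over 11927 transcripts, threshold 0.05). Animals were paired by the codes in the titles. Deviations from the assay means correlated within animals at 0.569, 0.435 and 0.434, and at most at 0.169 between animals. As the deviations of a transcript cancel over the animals, the low values between animals partly follow from those within. They are no separate support for the pairing. The standard error of the most abundant transcript was derived from the F statistic. That derivation falls below counting error where an assay has few counts. The other named transcripts therefore carry exact binomial intervals, and their differences between groups a standard error from pooled counts. Their edgeR p-values rest on the same F statistic, so the size of these p-values is uncertain. Without the animal as a block, each of these transcripts had an edgeR adjusted p of 1.31e-07 for its ratio in young liver. CPM are TMM-scaled, and ratios used a pseudocount of 0.5 CPM, which understates folds of low transcripts. Counting noise was computed as Poisson variance. Intervals cover counting error only, since counts were pooled over the libraries of an assay and the spread between animals was left out. PCR reads carried no molecular identifiers, so PCR copies were not accounted for either.

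Named transcripts were the 2 highest and 2 lowest fitted ratios with an adjusted p under 0.05, average log2 CPM of at least 0, a count in every library and the same direction in all animals, and the most abundant one. Differences between organs or ages for them were tested as an interaction of assay with group over 12 libraries. Alternatives were DESeq2 1.42.0, limma-voom (limma 3.58.1), other scaling, filters, pseudocounts, thinned depth, removal of the length trend, and each animal left out. On simulated counts, the fit recovered 84% of 100 transcripts changed 2-fold and 100% of 100 changed 4-fold among 11927. The simulation changed none of the transcripts at the lowest levels. It left all other true ratios at the center and gave every transcript the same extra spread. In the data most transcripts were called, so these recoveries need not hold there. The comparison, lists and tests were chosen with earlier results of these data known. No gene lists could be run without gene names.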

Additional observations from a re-analysis of the deposited data

Results flagged for a closer look

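Of the named transcripts, 3 had a log2 ratio of footprints over RNA that differed between young liver and another group by the interaction test of edgeR (adjusted p under 0.05). ENSRNOT00000064242 was lower in young liver than in young brain by a log2 difference of -6.97 and lower than in old liver by one of -3.2. With single animals left out these ranged from -7.63 to -6.55 and from -3.82 to -2.84, and every one passed. ENSRNOT00000024084 was higher in young liver than in young brain by 6.34 (6.22 to 6.48 with an animal left out, all passing), with 1 RNA-seq count in each young liver library. Both were chosen for extreme ratios in young liver, which tilts these differences away from 0, and the tests were added after their values were seen. ENSRNOT00000003921, the most abundant liver transcript, was higher in young than in old liver by 0.52 (edgeR adjusted p = 0.0498). That call was lost on leaving out young animal 2 (log2 difference 0.47, edgeR adjusted p = 0.126), young animal 3 (0.58, 0.124), or old animal 1 (0.51, 0.233), 2 (0.45, 0.263) or 3 (0.6, 0.0884).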

How the results depend on the processing

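The count of 8357 called transcripts stayed from 6891 to 8672 over 15 alternatives, and from 6891 to 8635 with an animal left out. The animal as a block raised it from 7284 without the block, 7276 of them shared. With upper-quartile factors 52.8% of calls were higher, against 49.6%. The 4 extreme transcripts kept their calls in the 14 alternatives that tested them; with at least 10 counts in each library they were not tested. The SD of the log2 ratio (1.143) was 1.381 and 0.913 with pseudocounts of 0.1 and 2 CPM, 1.163 with a minimum count of 30, 1.024 without a filter, 1.003 with at least 10 counts in each library and 1.05 with 10 in each RNA-seq library. The last 2 choices were made after seeing the data. The rank correlation with RNA level (-0.067) was -0.11 and 0.015 under them, the second of opposite sign. The rank correlation with the length-like value (-0.441) was -0.434 and -0.446 with the 2 pseudocounts, -0.463 and -0.385 with the stricter and no filter, -0.447 with libraries thinned to equal totals, and -0.478 and -0.422 under those 2 choices. The rank correlation with RNA per length (0.182) was 0.232 with 2 CPM, 0.142 without a filter and 0.269 on RNA counts alone. The rank correlation with footprint level (0.345) was 0.385 and 0.253 with the stricter and no filter and 0.409 on RNA counts alone. The mean r between animals (0.919) was 0.897 to 0.944 with an animal left out, highest without animal 1. The difference in the rank correlation with RNA level between young and old liver (-0.003) turned to 0.015 without young animal 1, and to 0.002 and 0.008 without old animals 2 and 3 (-0.012 to 0.015 with any animal left out). The causes were not tested beyond the choice of transcripts itself. Poisson noise came to 34.4% of the variance between animals over all transcripts, and to 44.1% in the lowest of 10 bins by mean level.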
